A study of Mus musculus with 8 samples.

Results

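The epidermis is renewed from a basal layer whose cells stop dividing, move up through the spinous and granular layers and end as the cornified barrier, and a small set of transcription factors marks and drives these steps. Here 10 genes for such factors, taken as a list of symbols, were followed in mouse back-skin epidermis: Trp63, Cebpa, Cebpb, Klf4, Grhl1, Grhl3, Ovol1, Gata3, Prdm1 and Hopx. All 10 symbols were found among the 54232 gene identifiers counted in each of the 8 libraries, and all 10 passed the filter on low counts that left 19251 genes for testing. Their lowest count in any library was 716 (Hopx) and their highest was 13784 (Trp63).

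The samples came from wild-type females and from females lacking REDD1, the stress-response protein encoded by Ddit4, both on an F1 C57Bl x 129 background. Shaved back skin received 200 ul of acetone alone (vehicle), 4 ug of the phorbol ester TPA, a tumour promoter and irritant that activates protein kinase C, or TPA preceded by 1 h by 2 ug of the glucocorticoid fluocinolone acetonide (FA). Epidermis was scraped off 24 h after TPA, and its total RNA was sequenced. There were 2 wild-type and 2 knockout vehicle libraries, but 1 library of each genotype after TPA and 1 of each after FA and TPA. No FA group without TPA and no earlier time was analysed here. How the knockout was made is not given in the sources used here. The labels do not say whether libraries of a group came from separate animals, so the p-values measure only the spread between these libraries.

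p63, the product of Trp63, maintains the basal layer and the identity of all stratified epithelia. C/EBP alpha and C/EBP beta act as basal cells leave the cell cycle and commit to differentiation. Klf4, the grainyhead-like factors Grhl1 and Grhl3, Ovol1 and Gata3 act in the upper layers on barrier genes, and Prdm1 and Hopx mark late, granular stages. Glucocorticoids act through a nuclear receptor that is itself a transcription factor, and TPA acts in part through AP-1 factors.

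Grhl3, Prdm1 and Hopx were among the members whose levels stepped up from vehicle to TPA and again to FA and TPA, and their promoters are shown to let a reader see what lies just before their starts. The RefSeq promoter table (GRCm38.p6) held 10 promoters for 8 members and none for Trp63 or Ovol1. The runs below are the 250 bases before each start, 5′ to 3′ on the gene's strand, which is the minus strand for all 4. They span chr4:135573633-135573882 for Grhl3, chr10:44458749-44458998 for Prdm1, chr5:77115124-77115373 for the outer Hopx start and chr5:77095268-77095517 for the inner one. The Prdm1 start used is also an inner one, inside the annotated gene (chr10:44437177-44528501), which has 4 transcript starts. Capitals mark matches on either strand to AP-1 (TGANTCA), the CCAAT box (CCAAT) or C/EBP (TTNNGNAA).
Grhl3: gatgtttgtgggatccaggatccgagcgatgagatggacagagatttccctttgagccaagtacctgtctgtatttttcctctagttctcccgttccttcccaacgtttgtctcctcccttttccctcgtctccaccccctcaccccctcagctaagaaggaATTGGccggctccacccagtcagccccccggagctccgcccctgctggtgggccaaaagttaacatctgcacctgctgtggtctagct
Prdm1: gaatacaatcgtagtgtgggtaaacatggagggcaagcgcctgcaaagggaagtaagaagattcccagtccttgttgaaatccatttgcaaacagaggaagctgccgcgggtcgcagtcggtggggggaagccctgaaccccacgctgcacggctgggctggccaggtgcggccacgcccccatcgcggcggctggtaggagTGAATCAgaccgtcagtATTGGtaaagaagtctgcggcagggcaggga
Hopx, outer start: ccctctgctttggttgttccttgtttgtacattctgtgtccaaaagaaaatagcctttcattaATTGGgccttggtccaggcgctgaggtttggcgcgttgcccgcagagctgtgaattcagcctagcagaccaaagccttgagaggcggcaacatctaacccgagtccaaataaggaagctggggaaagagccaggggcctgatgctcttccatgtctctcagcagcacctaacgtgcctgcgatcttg
Hopx, inner start: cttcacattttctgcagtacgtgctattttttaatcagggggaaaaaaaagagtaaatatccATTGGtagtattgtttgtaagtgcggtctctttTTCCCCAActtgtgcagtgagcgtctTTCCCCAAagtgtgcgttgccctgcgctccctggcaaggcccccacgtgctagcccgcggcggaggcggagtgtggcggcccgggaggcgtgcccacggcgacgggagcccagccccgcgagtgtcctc
All 4 runs hold a CCAAT box in the reverse orientation (ATTGG). It begins 88 bases before the start of Grhl3, 31 bases before that of Prdm1, and 187 and 188 bases before those of Hopx. A CCAAT box in either orientation was found in 37.4% of all 32851 promoters of the table, counted over 250 bases before and 50 after the start, and in 4 of the 8 members found there. The AP-1 letters were found in 1 member, at 48 bases before this inner Prdm1 start (TGAATCA), against 7.81% of all promoters. C/EBP letters were found in 3 of 8 members, against 40.7% of all promoters, and the inner Hopx promoter held them at 155 and 129 bases before its start. A glucocorticoid receptor palindrome and the grainyhead letters AACCNGTT were in no member's promoter, and they were in 0.475% and 2.09% of all promoters. These windows are short, and a match or its absence says only which letters are there.

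The 8 libraries held 16874233 to 22560098 counts. Levels are given as CPM, each gene's count scaled to a fixed library total after TMM scaling of the libraries to a common level, and 3 counts correspond to 0.135 to 0.191 CPM on this scale. Ddit4 stood at 128 and 117 CPM in wild-type vehicle skin and at 18.8 and 18.6 in knockout vehicle skin, and within each treatment it was also lower in the knockout library. The 4 keratinocyte keratins Krt5, Krt14, Krt1 and Krt10 together reached 15614 to 29504 CPM, so keratinocyte RNA was abundant. The scrapes also held RNA of fibroblast markers, 6 of which summed to 621 to 1168 CPM in vehicle libraries. These summed to 513 in the wild-type and 386 in the knockout library after TPA, and to 263 and 349 after FA and TPA. The noncoding RNA Gm26917 took 8.34% to 13.8% of the counts in vehicle libraries and 16.8% to 24.2% in treated ones. In such bulk samples, fewer cells of a type and less RNA per cell cannot be told apart.

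To compare members with each other, CPM was divided by exon length in kb. In the 4 vehicle libraries Cebpa and Klf4 had the highest levels, at 178 ± 21.7 and 176 ± 8.02 CPM per kb (SD, n = 4). Gata3 followed at 107 ± 11.6, then Grhl1 at 72.9 ± 7.72 and Trp63 at 67.9 ± 8.52 CPM per kb. Grhl3 at 51.6 ± 5.53 and Cebpb at 49.8 ± 11.3 came next, above Hopx at 29.8 ± 2.74, Ovol1 at 25.4 ± 1.98 and Prdm1 at 22.6 ± 2.04 CPM per kb. The ranges of Cebpa and Klf4, of Grhl1 and Trp63, of Grhl3 and Cebpb, and of Ovol1 and Prdm1 overlapped, so these neighbours in the order were not apart beyond their spread. After TPA the order changed. The mean of the 2 TPA libraries put Cebpb 3rd, Gata3 6th and Trp63 8th, and after FA and TPA Klf4 stood 1st and Trp63 9th. With the length of the longest transcript in place of all exons, Cebpb was again 3rd under TPA, but Gata3 was 7th and Trp63 stayed 5th there, and Trp63 was 7th after FA and TPA, so its place in the treated order rests on the length used. Hopx, Ovol1 and Prdm1 thus held the 3 lowest vehicle levels, and Prdm1 was 10th in all 3 treatments.

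**Figure D1:**
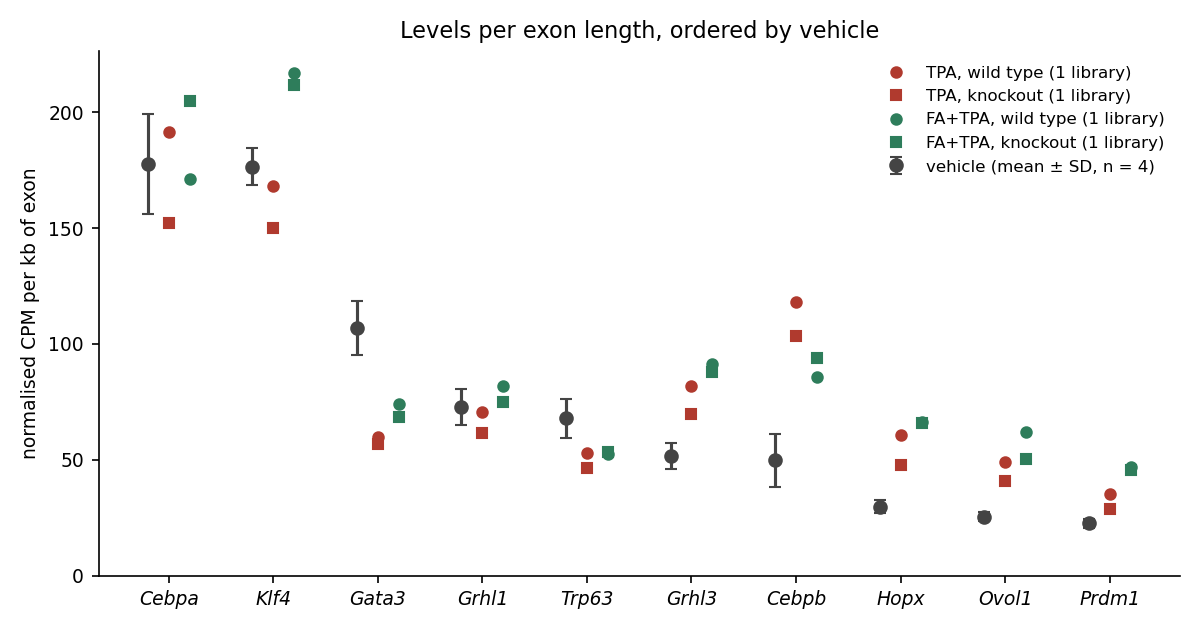
Levels of the 10 members as normalised CPM per kb of exon on a linear axis from 0, ordered by their vehicle mean, with the mean ± SD of the 4 vehicle libraries and 1 point for each treated library. The vehicle means run from 178 for Cebpa to 22.6 for Prdm1, and the 4 treated points of Cebpb lie above its vehicle mean and SD.

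TPA moved 7 of the 10 members. At an adjusted p below 0.05 in edgeR's quasi-likelihood test, Cebpb, Hopx, Ovol1, Grhl3 and Prdm1 were higher and Gata3 and Trp63 were lower than in vehicle skin, and Klf4, Grhl1 and Cebpa did not pass. TPA changed much of the transcriptome: 46.0% of the genes tested passed the same rule, 23.2% upward and 22.8% downward (4472 and 4380 genes). The members are well counted, and among genes kept at a minimum count of 50 the share called was larger, at 7661 of 13871. With library-size scaling the split was 2846 up and 6432 down, and 4 members were called up and 4 down. The members' median log2 change was 0.22, beside -0.03 over all genes. Because each genotype gave only 1 TPA library, the test fitted genotype and treatment together over all 8 libraries.

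**Figure D2:**
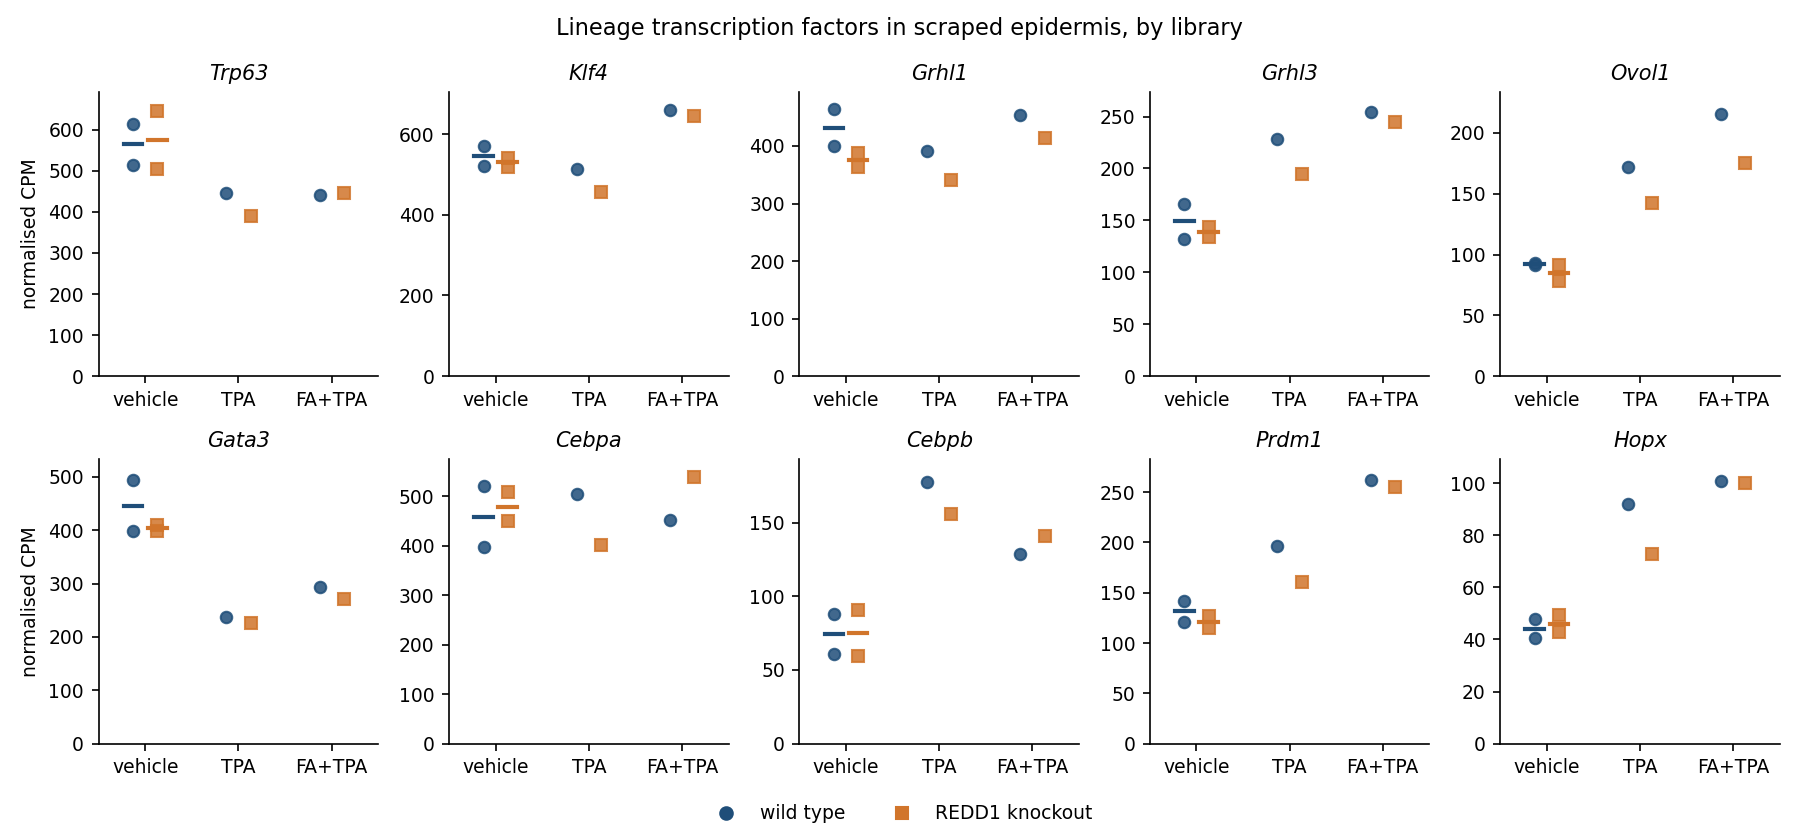
Normalised CPM of each member in each of the 8 libraries by treatment, with circles for wild-type and squares for knockout libraries, short lines for the vehicle means and each vertical axis starting at 0. Grhl3, Ovol1, Prdm1 and Hopx step up from vehicle to TPA to FA and TPA in both genotypes, Cebpb is highest under TPA, and Gata3 and Trp63 lie lower in all 4 treated libraries.

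The basal factor Trp63 (ENSMUSG00000022510, mm10 chr16:25683763-25892102, plus strand) stood at 514 and 615 CPM in wild-type vehicle skin and at 646 and 505 in knockout vehicle skin. It measured 446 CPM in the wild-type and 389 in the knockout TPA library, and 441 and 447 after FA and TPA. All 4 treated libraries lay below all 4 vehicle libraries. The log2 change was -0.45 ± 0.12 (SE) for TPA (edgeR adjusted p = 0.0114), and it was -0.31 (edgeR adjusted p = 0.184) when the knockout TPA library was left out. FA and TPA against vehicle gave -0.36 ± 0.12 (edgeR adjusted p = 0.0439), a call that was lost without either FA and TPA library, the knockout vehicle replicate 1 or the wild-type vehicle replicate 2, with adjusted p up to 0.268, and in the fit with 1 mean per group (edgeR adjusted p = 0.0803). Between FA with TPA and TPA alone the log2 difference was 0.09 ± 0.14 and did not pass (edgeR adjusted p = 0.761). The gene has 8 annotated transcripts from 3 starts, and gene counts cannot separate the long and the N-terminally truncated forms of p63.

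Of the C/EBP pair, Cebpb rose with TPA and Cebpa did not pass in any treatment comparison. Cebpa (ENSMUSG00000034957, chr7:35119293-35121928, plus strand), a bZIP factor that acts with its relative in keratinocyte commitment, stood at 397 to 520.3 CPM in vehicle skin, 505 and 402 after TPA, and 451 and 539.6 after FA and TPA. Its libraries overlapped in every comparison, and its log2 change was -0.05 ± 0.14 for TPA (edgeR adjusted p = 0.805). Cebpb (ENSMUSG00000056501, chr2:167688915-167690418, plus strand), a bZIP factor also strongly induced by inflammatory signals, stood at 88.3 and 60.6 CPM in wild-type vehicle skin and at 59.7 and 90.8 in knockout vehicle skin. It reached 178 CPM in the wild-type and 156 in the knockout TPA library. All treated libraries lay above all vehicle libraries, and the log2 change of 1.15 ± 0.17 for TPA (edgeR adjusted p = 0.000268) was the largest among the members in that comparison. FA before TPA left Cebpb at 129 and 141 CPM. Cebpb was the only member with a negative estimate for FA and TPA against TPA, at -0.30 ± 0.20, which did not pass (edgeR adjusted p = 0.418). Both libraries still lay above vehicle, at 0.85 ± 0.17 (edgeR adjusted p = 0.00352), a call that did not hold without the knockout FA and TPA library (edgeR adjusted p = 0.0751). An opposite-strand gene, Tmem189, shares 312 exon bases with Cebpb, and its own log2 change for TPA was -0.28 ± 0.13 (edgeR adjusted p = 0.111).

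Because C/EBP beta is abundant in myeloid cells, the myeloid markers are given beside it. The 6 neutrophil markers summed to 1.50 to 3.05 CPM in vehicle libraries, where Ly6g was at 0. They summed to 47.6 and 72.4 after TPA and 15.1 and 19.2 after FA and TPA. Only 2 of the 6, Csf3r and Cxcr2, passed the filter on low counts, and they made up most of the TPA sums. In the wild-type TPA library they held 11.9 and 34.9 CPM, and in the knockout TPA library 34.8 and 36.3. Camp, at 0.308 and 0.359 CPM after TPA, Ngp, at 0.247 and 0.539, and Ly6g, at 0 and 0.045, stayed near the floor. The 9 macrophage and monocyte markers summed to 112 to 128 CPM in vehicle, 126 and 317 after TPA, and 137 and 167 after FA and TPA. Most of the vehicle sum came from Csf1r, at 85.2 to 96.0 CPM, which changed with TPA by -0.71 ± 0.14 (edgeR adjusted p = 0.0016). Mrc1 held 1.70 to 3.88 CPM in vehicle libraries and 42.4 and 186 after TPA. Of the 9 markers 6 were called higher and 1 lower with TPA, with a median log2 change of 1.72. Neutrophil marker sums and Cebpb levels were both highest under TPA. Within the TPA pair the neutrophil sum was higher and Cebpb lower in the knockout library, with 1 library of each genotype. The part of myeloid cells in the Cebpb change was not tested.

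Among the barrier factors, Klf4 (ENSMUSG00000003032, chr4:55527143-55532466, minus strand), a zinc-finger factor needed to complete the skin barrier, passed for FA and TPA against both other treatments but not for TPA alone. It stood at 520.4 and 572 CPM in wild-type and 541 and 519 in knockout vehicle skin. After TPA it measured 513 in the wild-type and 458 in the knockout library, and after FA and TPA 661 and 645. Both FA libraries lay above all other libraries. The log2 difference between FA with TPA and TPA was 0.43 ± 0.10 (edgeR adjusted p = 0.02), and against vehicle it was 0.28 ± 0.08 (edgeR adjusted p = 0.0284). The first call did not hold when any 1 of the 4 treated libraries was left out, with adjusted p from 0.0749 to 0.225. The second was lost at library-size scaling (0.06, edgeR adjusted p = 0.678) and without either FA library or either knockout vehicle library, with adjusted p from 0.0531 to 0.235. With 1 mean per group the adjusted p of edgeR was 0.0726 for the first and 0.088 for the second. TPA alone gave -0.15 ± 0.09 (edgeR adjusted p = 0.18), and this became a call at library-size scaling (-0.38, edgeR adjusted p = 0.00804).

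Of the grainyhead-like pair, Grhl3 rose with TPA and Grhl1 did not pass. Grhl1 (ENSMUSG00000020656, chr12:24572283-24617391, plus strand), a regulator of desmosomal cadherin genes, stood at 364 to 464 CPM in vehicle skin, 391 and 342 after TPA and 453 and 414 after FA and TPA. It passed in no treatment comparison with TMM scaling, at -0.14 ± 0.09 for TPA (edgeR adjusted p = 0.226) and 0.25 ± 0.10 for FA and TPA against TPA (edgeR adjusted p = 0.178). At library-size scaling the TPA value was -0.37 (edgeR adjusted p = 0.0137). Grhl3 (ENSMUSG00000037188, chr4:135541888-135573630, minus strand), required for barrier formation and a regulator of the crosslinking enzyme gene Tgm1, stood at 132 and 166 CPM in wild-type and 144 and 134 in knockout vehicle skin. It measured 229 and 195 CPM after TPA and 255 and 245 after FA and TPA. All 4 treated libraries lay above vehicle, and both FA libraries lay above both TPA libraries. The TPA change was 0.55 ± 0.10 (edgeR adjusted p = 0.00108) and the change with FA and TPA against vehicle was 0.80 ± 0.10 (edgeR adjusted p = 0.000189). The step from TPA to FA and TPA, 0.24 ± 0.12, did not pass (edgeR adjusted p = 0.245).

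Ovol1 (ENSMUSG00000024922, chr19:5549136-5560646, minus strand), a zinc-finger factor that restrains proliferation of keratinocytes leaving the basal layer, showed little spread between vehicle libraries. It stood at 91.5 and 93.1 CPM in wild-type and 78.2 and 91.3 in knockout vehicle skin, then 172 and 143 after TPA and 216 and 175 after FA and TPA. The TPA change was 0.82 ± 0.09 (edgeR adjusted p = 3.38e-05), and FA and TPA against vehicle gave 1.14 ± 0.09 (edgeR adjusted p = 9.64e-06). The step between the treated groups was 0.31 ± 0.10 (edgeR adjusted p = 0.0905). At each treatment the knockout library or mean was the lower one, and the knockout FA library (175) lay close to the wild-type TPA library (172).

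Gata3 (ENSMUSG00000015619, chr2:9857078-9890034, minus strand), a zinc-finger factor for barrier lipids and the hair follicle that T cells also express, was the member that fell furthest. It stood at 494 and 399 CPM in wild-type and 410.1 and 398 in knockout vehicle skin. TPA libraries held 238 in the wild type and 227 in the knockout, and FA and TPA libraries held 294 and 272. The groups did not overlap in any of the 3 treatment comparisons, with FA and TPA between the others. The log2 change was -0.87 ± 0.10 for TPA (edgeR adjusted p = 5.57e-05) and -0.59 ± 0.10 for FA and TPA against vehicle (edgeR adjusted p = 0.00131), while the difference between the treated groups, 0.28 ± 0.11, did not pass (edgeR adjusted p = 0.153). The antisense gene Gm13256 shares 155 exon bases with Gata3 and changed by -0.82 ± 0.22 with TPA (edgeR adjusted p = 0.0118), a call lost without either TPA library (edgeR adjusted p up to 0.0899). The strand setting of the counting is not given in the sources used here, so their reads may not be fully separated.

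T cell markers were read beside Gata3. Of the 7 tested, 4 fell and 1 rose with TPA. The gamma-delta T cell gene Trdc changed by -2.66 ± 0.23 (edgeR adjusted p = 8.1e-06) and the pan-T gene Cd3e by -1.46 ± 0.15 (edgeR adjusted p = 2.83e-05). In vehicle libraries Cd3e held 10.5 to 19.1 CPM and Trdc 7.35 to 16.2 CPM. After TPA Cd3e held 6.35 CPM in the wild-type and 4.40 in the knockout library. The 7 markers together summed to 51.2 to 83.8 CPM in vehicle and 60.6 and 69.7 after TPA. That sum includes Thy1, the marker that rose with TPA, by 1.10 ± 0.12 (edgeR adjusted p = 3.06e-05), so it does not track the 4 that fell. The part of T cells in the Gata3 change was not tested.

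Of the late factors, Prdm1 (ENSMUSG00000038151, chr10:44437177-44528501, minus strand), which encodes the repressor Blimp-1 of granular cells, was the other member that passed for FA and TPA against TPA. It stood at 121 and 142 CPM in wild-type and 126 and 115 in knockout vehicle skin, 197 and 161 after TPA, and 262 and 255 after FA and TPA. The 3 treatments did not overlap. The log2 change was 0.50 ± 0.10 for TPA (edgeR adjusted p = 0.00156), 0.54 ± 0.11 for FA and TPA against TPA (edgeR adjusted p = 0.0118) and 1.04 ± 0.09 against vehicle (edgeR adjusted p = 2.45e-05). The TPA call was lost at library-size scaling (0.26, edgeR adjusted p = 0.0555). The FA against TPA call was lost without the knockout FA, the knockout TPA or the wild-type FA library, with adjusted p from 0.0818 to 0.163. Prdm1 lies on the same chromosome as Ddit4, 15.4 Mb away.

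Hopx (ENSMUSG00000059325, chr5:77086988-77115121, minus strand), a small homeodomain protein that lacks DNA binding and is found in differentiated keratinocytes and in hair follicle stem cells, stood at 40.5 and 47.9 CPM in wild-type and 42.9 and 49.3 in knockout vehicle skin. It measured 92.0 and 72.7 CPM after TPA and 101 and 100.1 after FA and TPA. All treated libraries lay above vehicle, with changes of 0.86 ± 0.11 for TPA (edgeR adjusted p = 0.000117) and 1.15 ± 0.11 for FA and TPA (edgeR adjusted p = 3.55e-05). FA and TPA against TPA gave 0.29 ± 0.13 (edgeR adjusted p = 0.208). The antisense gene Hopxos, which shares 412 exon bases with Hopx, held 6.36 to 7.14 CPM in vehicle libraries and rose with TPA by 0.80 ± 0.13 (edgeR adjusted p = 0.000524). Because Hopx is also a follicle gene, the 6 outer sheath and bulge markers were summed. They summed to 2023 to 2332 CPM in vehicle libraries, 334 and 553 after TPA and 899.7 and 876 after FA and TPA, mostly through Krt15. The list moved both ways under TPA, with Krt75 (3.30 ± 0.19) and Sox9 (1.26 ± 0.14) higher and Krt15 (-3.00 ± 0.23) and Lhx2 (-0.77 ± 0.24) lower in edgeR. The part of follicle cells in the Hopx change was not tested.

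FA and TPA against TPA called 2 members, Klf4 and Prdm1, both higher, where 10% of all genes tested were called (5.71% up and 4.31% down). Of the 10 estimates 9 were positive, beside 50.7% of all genes, 6 members had an unadjusted p below 0.05, beside 23.5% of all genes, and the members' median was 0.27 beside 0.01 over all genes. FA and TPA against vehicle called 8 members, 6 higher (Klf4, Grhl3, Ovol1, Cebpb, Prdm1 and Hopx) and 2 lower (Trp63 and Gata3), where 31.6% of all genes were called, 17.4% up and 14.2% down (3347 and 2729 genes, or 1953 and 4982 with library-size scaling). At a minimum count of 50, FA and TPA against TPA called 1795 of 13871 genes, and 5666 were called against vehicle. The members called there were again 2 and 8. The 3 treatment comparisons share libraries, so they are not independent of each other.

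**Figure D3:**
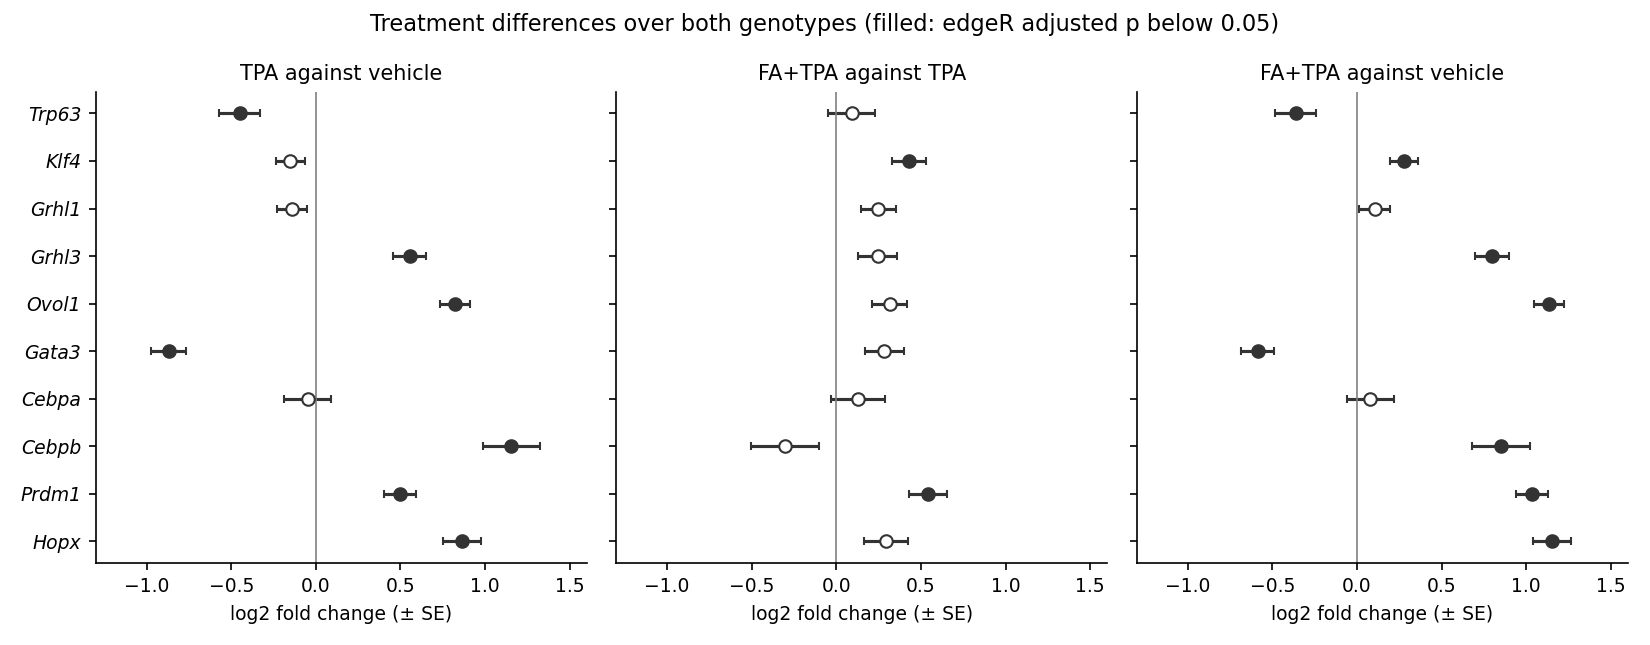
Log2 change and SE of each member for TPA against vehicle, FA and TPA against TPA, and FA and TPA against vehicle, from edgeR's fit over all 8 libraries. Filled points passed an adjusted p of 0.05: 7, 2 and 8 of the 10 members.

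Grhl3, Ovol1, Prdm1 and Hopx shared a stepwise order, in which both TPA libraries lay above all 4 vehicle libraries and both FA and TPA libraries lay above both TPA libraries. Among all genes tested, 2.24% (431 genes) had this order. With RLE size factors Ovol1 left the set, and with library-size scaling all 4 kept the order. FA and TPA lay above TPA without overlap in 7 members (Klf4, Grhl1, Grhl3, Ovol1, Gata3, Prdm1 and Hopx) and below it in 1 (Cebpb), where 27.4% and 25.4% of all genes did so. At RLE size factors the 7 became 6. Against vehicle, all TPA libraries lay above in 5 members and below in 3 (Trp63, Klf4 and Gata3), where 28.0% and 29.0% of all genes did so. For FA and TPA these counts were 6 and 2, where 24.7% and 22.9% of all genes did so. With RLE size factors Klf4 was not among those below under TPA, and with library-size scaling Grhl1 was below too and Klf4 was not above under FA and TPA. In the wild type, Ovol1 in FA and TPA skin was 2.34 times its mean vehicle level, Hopx 2.28 times, Prdm1 1.99 times and Grhl3 1.71 times. The knockout gave 2.07 times for Ovol1, 2.17 for Hopx, 2.11 for Prdm1 and 1.77 for Grhl3, each from 1 treated library.

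The 4 stepwise genes were picked for a shared order over these 8 libraries, which largely fixes a high correlation among them. Pearson's r of log2 CPM, given as a description over libraries that share treatments, was 0.976 for Ovol1 and Hopx, 0.975 for Grhl3 and Prdm1, and 0.941 for Ovol1 and Prdm1. Trp63 and Cebpb ran most oppositely among all member pairs, at -0.943. Genes with a pattern most like a member's were picked by r among 7281 expressed genes. Those nearest to Ovol1 were the late cornified envelope genes Lce1e (0.998) and Lce1h (0.997). Nearest to Grhl3 were Arl5b (0.995) and Cers3 (0.994), a synthase of ultra-long-chain ceramides, and nearest to Prdm1 were Nipal4 (0.993) and again Cers3 (0.989). Hopx was nearest to Sptlc1 (0.992), a subunit of the first enzyme of sphingolipid synthesis, and Casp14 (0.991), the caspase of cornification. Gata3 was nearest to Dock1 (0.996) and Plxna3 (0.994), Cebpb to Gpaa1 (0.992) and Hspbp1 (0.991), Klf4 to Elovl1 (0.987) and Atg13 (0.987), and Trp63 to Napg (0.985) and Zfp871 (0.981). Grhl1, nearest to Daam1 (0.966) and Chic2 (0.958), and Cebpa, nearest to Egln2 (0.904) and Cnppd1 (0.901), had looser neighbours.

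The products of the layers these factors serve moved in both directions. Of 28 spinous and granular products, 14 rose and 8 fell with TPA, with a median log2 change of 0.38 (11 and 9 with library-size scaling). Then 12 rose and none fell with FA and TPA against TPA, with a median of 0.62, and leaving out 1 library at a time gave 8 to 16 higher and 0 to 2 lower. With FA and TPA against vehicle, 20 rose and 3 fell. Tgm1, the transglutaminase of the cornified envelope, rose with TPA by 1.16 ± 0.08 (edgeR adjusted p = 1.55e-06) and stood at 1.22 ± 0.08 with FA and TPA against vehicle (edgeR adjusted p = 3.07e-06). Krt10, the keratin of the spinous layer, held 7910 to 9763 CPM in vehicle skin, 3187 and 1903 after TPA, and 9695 and 8680 after FA and TPA. Its step from TPA to FA and TPA was 1.89 ± 0.15 (edgeR adjusted p = 7.31e-05). The envelope gene Lce1m fell with TPA by 2.36 and rose with FA and TPA against TPA by 2.17 on the log2 scale (edgeR adjusted p = 1.27e-07 and 6.86e-06). Krt10 and Lce1m thus shared a fall with TPA and a rise with FA and TPA against TPA. Estimates of these signs were found in Klf4 (-0.15 and 0.43), Gata3 (-0.87 and 0.28) and Grhl1 (-0.14 and 0.25). Trp63 (-0.45 and 0.09) and Cebpa (-0.05 and 0.13) had them too, but the 0.09 and both Cebpa values changed sign without some single libraries. Both comparisons use the same TPA libraries with opposite sign, which favours such a pair of signs. The share of all genes with these signs was not counted, so no likeness to Krt10 and Lce1m is read from them. Among these members, only Gata3 and Trp63 were called for TPA, and only Klf4 for FA and TPA against TPA. Ovol1, Grhl3, Prdm1, Hopx and Cebpb rose with TPA.

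Of 18 basal products, 4 rose and 6 fell with TPA (3 and 9 with library-size scaling), and 8 rose and 1 fell with FA and TPA against TPA. The 8 ranged from 3 to 9 when 1 library was left out. Krt14, the main basal keratin, rose with TPA by 1.58 ± 0.09 (edgeR adjusted p = 5.93e-07), from 2144 to 2781 CPM in vehicle skin to 8013 and 6958, while Trp63 fell. Krt15 changed by -3.00 ± 0.23 with TPA (edgeR adjusted p = 2.95e-06) and rose by 1.66 ± 0.23 with FA and TPA against TPA (edgeR adjusted p = 0.00147). The basal list thus did not move as one, and Trp63 shared its direction with Krt15 and not with Krt14 under TPA.

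Of 32 other keratinocyte transcription factors, 13 rose and 4 fell with TPA, with a median of 0.14. With library-size scaling 10 rose and 8 fell and the median was -0.09. Then 2 rose and 7 fell (0 to 3 and 3 to 7 when 1 library was left out) with FA and TPA against TPA, where the list's median was -0.11 beside 0.27 for the members. The ETS factor Ehf rose with TPA by 2.51 ± 0.12 (edgeR adjusted p = 1.86e-07). Runx1, a Runt factor of follicle and injured skin, rose with TPA by 1.74 ± 0.08 (edgeR adjusted p = 1.83e-07) and fell with FA and TPA against TPA by 1.32 ± 0.10 (edgeR adjusted p = 5.58e-05). The ETS factor Elf3 held 0.517 to 0.863 CPM in vehicle skin, 15.1 and 16.9 after TPA and 1.65 and 2.96 after FA and TPA, a change of -2.81 ± 0.25 between the treated groups (edgeR adjusted p = 0.000122). Dlx3, a homeobox factor of differentiating keratinocytes, and Barx2 rose with FA and TPA against TPA by 0.69 ± 0.11 and 0.76 ± 0.14 (edgeR adjusted p = 0.00287 and 0.00572), and both calls were lost without the knockout TPA or the wild-type FA and TPA library (edgeR adjusted p up to 0.0862 and 0.131). Nr3c1, the glucocorticoid receptor gene, changed by -1.01 ± 0.11 with TPA (edgeR adjusted p = 2.71e-05) and by -0.87 ± 0.10 with FA and TPA against vehicle (edgeR adjusted p = 0.000149).

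Close relatives of the members changed in both directions. Of 24 listed paralogues, some of them also among the 32 factors, 20 were tested, and 4 rose and 5 fell with TPA (4 and 8 with library-size scaling). Within the Klf family, Klf10 rose with TPA by 1.23 ± 0.10 (edgeR adjusted p = 3.99e-06), and Klf9, a known glucocorticoid target, changed by -2.12 ± 0.19 (edgeR adjusted p = 8.1e-06). FA and TPA against TPA then raised Klf9 by 1.58 ± 0.20 (edgeR adjusted p = 0.000929) and Klf15, another glucocorticoid target, by 2.01 ± 0.25 (edgeR adjusted p = 0.000736). The following relatives were chosen after their values were seen. Grhl2 changed with TPA by -0.24 ± 0.10 (edgeR adjusted p = 0.0793) where Grhl3 rose, and Ovol2, at 2.74 to 6.58 CPM in vehicle skin, changed by -1.28 ± 0.38 (edgeR adjusted p = 0.0178) where Ovol1 rose. Ovol2 did not pass when the knockout vehicle replicate 2 or the wild-type TPA library was left out (edgeR adjusted p up to 0.156). Cebpd rose by 0.67 ± 0.15 (edgeR adjusted p = 0.00407), in the direction of Cebpb, a call lost without the knockout TPA library (edgeR adjusted p = 0.0659).

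Loss of REDD1 left no member called. Over all treatments, knockout against wild type gave log2 differences from -0.20 to 0.01, with 9 of 10 below 0 (6 of 10 with library-size scaling), beside 51.3% of all genes, and 0 of 10 members passed in edgeR, limma-voom or DESeq2, where 3.58% of all genes tested were called in edgeR. The 2 members with an unadjusted p below 0.05 are named after their values were seen. Ovol1 differed by -0.20 ± 0.07 (edgeR adjusted p = 0.199) and Grhl1 by -0.18 ± 0.07 (edgeR adjusted p = 0.25). In vehicle skin alone the differences ran from -0.20 to 0.06, none had an unadjusted p below 0.05, and 2.17% of all genes were called. The largest was that of Grhl1, at 432 ± 45.5 CPM in wild-type and 376 ± 16.9 in knockout vehicle skin (SD, n = 2), a log2 difference of -0.20 ± 0.13 (edgeR adjusted p = 0.691).

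The response to TPA or FA was not shown to depend on genotype for any member. The genotype by TPA interaction called 0 members, with 0 at an unadjusted p below 0.05, and 0.00519% of all genes (1 gene). Its largest member values were -0.40 ± 0.23 for Hopx and -0.39 ± 0.27 for Cebpa (edgeR adjusted p = 1.0 for both). The genotype by FA interaction called 0 members and 0% of all genes, 613 of which had an unadjusted p below 0.05 (DESeq2 called 7 genes and limma-voom 0), and its largest member value was 0.59 ± 0.31 for Cebpa (edgeR adjusted p = 1.0). These interactions rest on 1 treated library per genotype, and in simulated data they recovered 21% and 5% of genes set to a 2-fold difference.

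**Figure D4:**
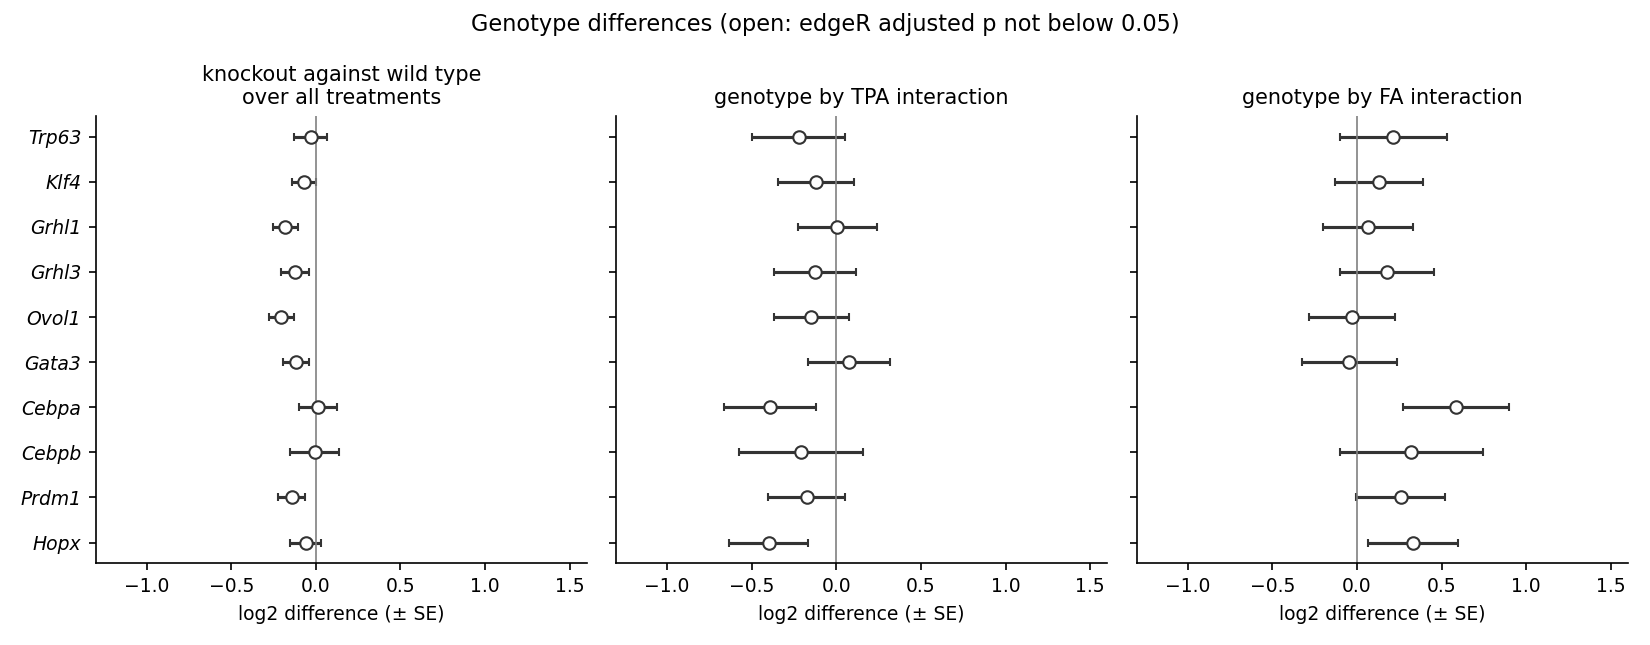
Log2 difference and SE of each member for knockout against wild type over all treatments, the genotype by TPA interaction and the genotype by FA interaction, from edgeR. The overall differences lie between -0.20 and 0.01, the interactions spread wider with larger SEs, and all points are open because none passed an adjusted p of 0.05.

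Under TPA the knockout library was the lower one for 10 of 10 members, by a median ratio of 0.862, with Hopx at 0.79 and Gata3 at 0.954, where it was the lower one for 49.2% of all genes. With library-size scaling 5 of 10 members and 23.1% of genes were lower, so this count moved with the scaling. Under FA and TPA it was lower for 7 of 10, with a median ratio of 0.976, beside 50.7% of all genes. With 1 library on each side these ratios have no test.

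Calls by genotype were found among other lineage factors. Of the 32 other keratinocyte factors 3 were called over all treatments. Sox9, a follicle and stem cell factor, was higher in the knockout by 0.69 ± 0.12 (edgeR adjusted p = 0.0104), Gata6, a relative of Gata3 found in sebaceous ducts, was higher by 0.80 ± 0.18 (edgeR adjusted p = 0.0411), and Maf was lower, at -0.45 ± 0.11 (edgeR adjusted p = 0.0468). Sox9 was called in all 16 alternatives of this comparison, whereas Gata6 lost its call in 8, among them the loss of any vehicle or FA and TPA library, and Maf in 9, with adjusted p up to 0.174 and 0.18. In vehicle skin the same 3 were called, with Gata6 at 1.11 ± 0.20 (edgeR adjusted p = 0.0207), and all 3 calls were lost without the knockout vehicle replicate 2. Sebaceous gland markers moved with them: 6 of 7 were called higher in the knockout over all treatments, and their sum was 262 and 431 CPM in wild-type and 702 and 1013 in knockout vehicle skin. Of the 6 outer sheath and bulge markers, Sox9 itself and Lhx2 were called higher over all treatments, Lhx2 by 0.98 ± 0.19 (edgeR adjusted p = 0.0223), and the list's median was 0.73. In vehicle skin 4 of 5 skeletal muscle markers were called higher in the knockout, with sums of 19.2 and 4.97 CPM in wild-type and 161 and 49.8 in knockout libraries. Of 7 T cell markers, 2 were called lower in the knockout over all treatments. These were Cd3e, at -0.62 ± 0.12, and Trdc, at -0.86 ± 0.17 (edgeR adjusted p = 0.0214 and 0.0243). Of 9 macrophage and monocyte markers only Ccr2 was called, higher by 1.58 ± 0.36 (edgeR adjusted p = 0.0395). The part of these tissues and cells in the genotype differences was not tested. Among the products of the upper layers, the cornified envelope genes Lor and Lce1m were lower in the knockout over all treatments, by -0.51 ± 0.10 and -0.40 ± 0.08 (edgeR adjusted p = 0.0228 and 0.0175), while 26 of the 28 were not called. These 2 calls were lost in 7 and 5 of 16 alternatives, both of them without either FA and TPA library (edgeR adjusted p up to 0.0793 for Lor and 0.093 for Lce1m). In vehicle skin 1 of the 28 was called, and it went the other way. Flg was higher in the knockout by 0.82 ± 0.18 (edgeR adjusted p = 0.0448), at 442 and 327 CPM in wild-type and 608 and 751 in knockout libraries. After TPA Flg held 1108 CPM in the wild-type and 510 in the knockout library.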

How the data were processed

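RNA sequencing of total RNA from scraped epidermis gave 8 libraries in 6 groups. The submitters' processing notes name Trim Galore, STAR, HTSeq and the mm10 build. Tool versions, strand setting and annotation release were not given in the sources used here. The deposited files hold raw counts per Ensembl gene, which the authors had not normalised. Symbols and coordinates came from GENCODE M21, which matched 54165 of 54232 identifiers.

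Counts were scaled by TMM (factors 0.859 to 1.10), genes were kept by filterByExpr with a minimum count of 10, and edgeR 4.0.16 quasi-likelihood tests in R 4.3.3 were adjusted by Benjamini-Hochberg over 19251 genes at 0.05. Treatments and the overall genotype difference came from an additive fit of genotype and treatment (4 residual degrees of freedom). Vehicle genotype differences and interactions came from 1 mean per group (2 residual degrees of freedom), with single treated libraries assumed to vary like the vehicle pairs. Vehicle replicates differed beyond sampling noise (chi-square per degree of freedom 27.6 and 12.4). A floor of 3 counts corresponds to 0.135 to 0.191 TMM-scaled CPM, for counting error only. In data simulated for TPA against vehicle, 200 of 18806 genes were set to change. There edgeR found 65% of the genes set to change 2-fold and 87% of those set to change 4-fold, with 12 false calls. The real comparison called 46.0% of genes, so this recovery need not hold for it.

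The members and lists were chosen with earlier results of these data known. From each list up to 2 called genes with the smallest p were named per comparison and direction, of which only some are printed, and for each member the 2 genes with the highest r where mean log2 CPM was 4 or more. Alternatives were RLE factors, library size only, no filter, a minimum count of 50, limma-voom (limma 3.58.1), DESeq2 1.42.0, Gm26917 left out, 1 mean per group, the vehicle libraries on their own (plain, or with the replicate number as a block), and each library left out.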

Additional observations from a re-analysis of the deposited data

How the results depend on the processing

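Without 1 library at a time, calls over all genes ranged from 571 to 2367 for FA and TPA against TPA (1929 with all libraries), from 2652 to 6051 for FA and TPA against vehicle (6076), from 288 to 630 for the overall genotype difference (690), from 440 to 1465 for the vehicle genotype difference (418), from 6 to 365 for the TPA interaction (1) and from 51 to 183 for the FA interaction (0). Members called ranged from 0 to 2 for FA and TPA against TPA and from 5 to 8 for FA and TPA against vehicle. None of the 10 was left for FA and TPA against TPA without the knockout FA, knockout TPA or wild-type FA library, and Prdm1 alone without the wild-type TPA library. Estimates near 0 changed sign without being called: Cebpa for TPA (-0.28 to 0.21), for FA and TPA against TPA (-0.13 to 0.36) and against vehicle (-0.10 to 0.23), and Trp63 for FA and TPA against TPA (-0.057 to 0.20). Library-size scaling took the median of all genes from -0.03 to -0.25 for TPA and from -0.01 to -0.23 for FA and TPA against vehicle, and turned Grhl1 to -0.12 and Cebpa to -0.14 for FA and TPA against vehicle. It took Trp63, Cebpb and Hopx above 0 for the overall genotype difference (0.036, 0.060 and 0.0051), where members changed sign in 18 of 160 values over the settings, none of them called. It split the overall genotype calls 640 up and 233 down (382 and 308 with TMM). With 1 mean per group, 1 member was called for FA and TPA against TPA and 6 for FA and TPA against vehicle (without Trp63 and Klf4), and the overall genotype calls were 450. Without a filter they were 1552. Vehicle genotype calls were 219 at a minimum count of 50 and 272 with DESeq2. TPA interaction calls were 3 at library-size scaling, 21 without a filter, 0 at a minimum count of 50, 0 with limma-voom and 11 with DESeq2, and FA interaction calls were 7 with DESeq2. In vehicle libraries alone, the replicate block gave 651 genotype calls and the same fit without it 280, with no member in either. Same-numbered vehicle libraries did not deviate together over all genes (r = -0.06 over 19251 genes). This single correlation cannot show whether they shared a batch that moved some genes. The cause of these changes was not tested. No member's genotype value was called in any setting run. The members' counts were all at least 716.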
